A study of Rattus norvegicus with 16 samples.

Results

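Genes of the cytosolic ribosomal proteins were followed in hearts (left ventricle) of male rats of the Sprague Dawley strain, fed 0.4% Dyets chow, after 5/6 nephrectomy (5/6Nx), an operation that removes most of the kidney mass, or after sham surgery. Operations took place at an age of 10 weeks, and hearts were taken 2, 4, 5 or 7 weeks later. Each of the 8 groups had 2 libraries, and each library came from a pool of 2 to 3 rats, so that single animals cannot be told apart. Every week had its own sham group and its own deposited table, with 1 abundance per group and no value per library.

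Members were chosen by symbol, as loci tested by the authors whose name begins with Rpl or Rps and a digit, or with Rplp, leaving out the kinases whose names begin with Rps6k. The locus with the highest mean abundance stood for a symbol that had several. This gave 75 genes with a fold change in every week, out of 14115, 14085, 13627 and 13665 loci tested at weeks 2, 4, 5 and 7. Of these, 28 encode proteins of the small (40S) subunit and 46 proteins of the large (60S) subunit or their paralogues. Rps19bp1, which encodes a binding partner of Rps19 and no subunit, met the symbol rule and is kept in the counts. Rps6 was listed at 0 in 1 group at week 4 and is described apart. Rps19, Rps27l, Rpl7l1, Rpl39l and Rpl26l1 were not analysed here.

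The ribosome reads messenger RNA with its small subunit and joins amino acids with its large subunit, and its proteins are made in matched amounts by nearly all cells. Vertebrate messengers of ribosomal proteins typically open with a C followed by a run of C and T (U in the RNA), the terminal oligopyrimidine tract, through which the kinase mTOR and the protein Larp1 adjust their translation. Striated muscle differs from other tissues in expressing Rpl3l, a paralogue that can take the place of Rpl3 near the catalytic centre of the large subunit.

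Sequences around the annotated gene starts are shown first, because the opening tract is the feature these genes are known for and because the balance of Rpl3l and Rpl3 is the result the data below turn on. They come from RefSeq (build GRCr8) and were found for 60 of the 75 members. Each line gives 10 bases before the start and 20 from it, on the strand of the transcript, with capitals for a run of at least 5 C or T that opens with C within 5 bases of the start.
Rpl37a: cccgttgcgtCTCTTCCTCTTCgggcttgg
Rplp0: caccgcaCTTCTCTCgccaggcgtcctcat
Rps24: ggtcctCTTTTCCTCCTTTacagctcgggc
Rps15: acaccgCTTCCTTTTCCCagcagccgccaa
Rpl39: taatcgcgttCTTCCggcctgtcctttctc
Rpl3: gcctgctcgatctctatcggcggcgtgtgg
Rpl3l: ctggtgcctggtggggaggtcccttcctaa
Rpl36: cggccgccatcggaaagctgcaggtaagtc

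In this build the windows lie at chr9:81748081-81748110 (plus strand) for Rpl37a, chr12:46718371-46718400 (minus) for Rplp0, chr16:96507-96536 (plus) for Rps24 and chr7:10068096-10068125 (minus) for Rps15. Those of Rpl39 (chrX:121195877-121195906, minus), Rpl3 (chr7:113507971-113508000, minus), Rpl3l (chr10:14258436-14258465, plus) and Rpl36 (chr9:1533770-1533799, plus) follow. Such a run stood at the annotated start of 40 of the 60 members (66.7%), against 5704 of 33469 RefSeq starts of all genes (17%). Rpl37a, Rplp0, Rps24, Rps15 and Rpl39 hold it, while Rpl3, Rpl3l and Rpl36 hold none at the start annotated in this build. With Rps19bp1 and Rps4y2 left out, the 39 members with the run and the 19 without it had nearly equal median log2 fold changes of 5/6Nx over sham. These medians were -0.08 and -0.07 at week 2, -0.15 and -0.14 at week 4, 0.15 and 0.15 at week 5, and 0.13 and 0.11 at week 7. Members with the run had a median sham level of 1260 FPKM over weeks 2, 4 and 5, against 888 FPKM without it (FPKM, a count of sequenced fragments scaled to the length of the transcript and to the depth of the library).

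The 250 bases before the start of Rpl3 (chr7:113507991-113508240, minus strand) and of Rpl3l (chr10:14258196-14258445, plus strand) are printed 5′ to 3′ on the transcript strand, with capitals for the motifs named below.
Rpl3: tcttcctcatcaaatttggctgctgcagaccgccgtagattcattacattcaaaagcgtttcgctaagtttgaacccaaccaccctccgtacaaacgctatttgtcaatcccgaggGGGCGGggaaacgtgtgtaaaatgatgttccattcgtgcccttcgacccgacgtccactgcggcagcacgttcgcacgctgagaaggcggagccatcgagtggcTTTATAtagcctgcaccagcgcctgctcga
Rpl3l: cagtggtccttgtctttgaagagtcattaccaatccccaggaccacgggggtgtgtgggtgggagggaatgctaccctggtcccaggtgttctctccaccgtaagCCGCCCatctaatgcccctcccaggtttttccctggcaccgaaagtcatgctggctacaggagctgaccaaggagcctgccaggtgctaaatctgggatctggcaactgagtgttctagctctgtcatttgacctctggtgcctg

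Among 5 motifs searched on both strands of these 250 bases, GGGCGG was in 35 of the 60 members (58.3%), among them Rpl3 and Rpl3l, and in 30.5% of all 33469 windows. CCGGAAG was in 14 members (23.3%) against 7.27% of all windows, and CTCGCGAG in 7 members (11.7%) against 0.624%. AAGATGGC was in 1 member (1.67%, against 1.63%). TATAAA was in 7 members (11.7%), among them Rpl3, against 12.9% of all windows. These are matches of letters, and a missing match says only that the letters are not in the window.

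Ribosomal protein genes were among the abundant transcripts of the ventricle. The median member had 1165 and 1143 FPKM at week 2 (sham, then 5/6Nx), 1162 and 1074 at week 4, 1193 and 1335 at week 5, and 460 and 445 at week 7. That was 46.2 to 127 times the median locus in the sham groups and 44.6 to 141 times in the 5/6Nx groups. The median locus was taken over the 12123 loci tested with a fold change in every week. The weekly tables may have been scaled separately, so levels of different weeks are set side by side here and were not tested.

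The fold changes of these genes were small and lay close together within a week, on a side of 0 that differed between weeks. At week 2, 15 of 75 members were above sham and the median log2 fold change was -0.08. At week 4 the count was 0 of 75 and the median -0.15. At week 5 it was 74 of 75, with a median of 0.15, and at week 7 it was 52 of 75, with a median of 0.11. As linear values, the median ratios of 5/6Nx to sham were 0.948, 0.903, 1.11 and 1.08. Over all tested loci, 45.1%, 46.3%, 50.4% and 48.9% were above sham at the 4 weeks, with medians of -0.02, -0.02, 0.00 and -0.01.

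Abundant transcripts as a set, with members among them, also lay below 0 at weeks 2 and 4. Loci with at least 100 FPKM in both groups had median log2 fold changes of -0.07, -0.12, 0.02 and 0.02, with 29.6%, 18.8%, 55.7% and 52.1% above sham. Members of that level are among these loci, so they are in part compared with themselves. Taken relative to the medians of these loci, 33, 19, 74 and 50 members were above 0 at weeks 2, 4, 5 and 7. On that scale most members were above 0 at weeks 5 and 7 and most were below it at week 4. At week 2 the members' median (-0.08) was close to that of those loci (-0.07), so no direction is read from that count. Members of 1 week share the same 4 libraries, so their number is not a number of replicates, and no p-value was computed for the set.

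**Figure D1:**
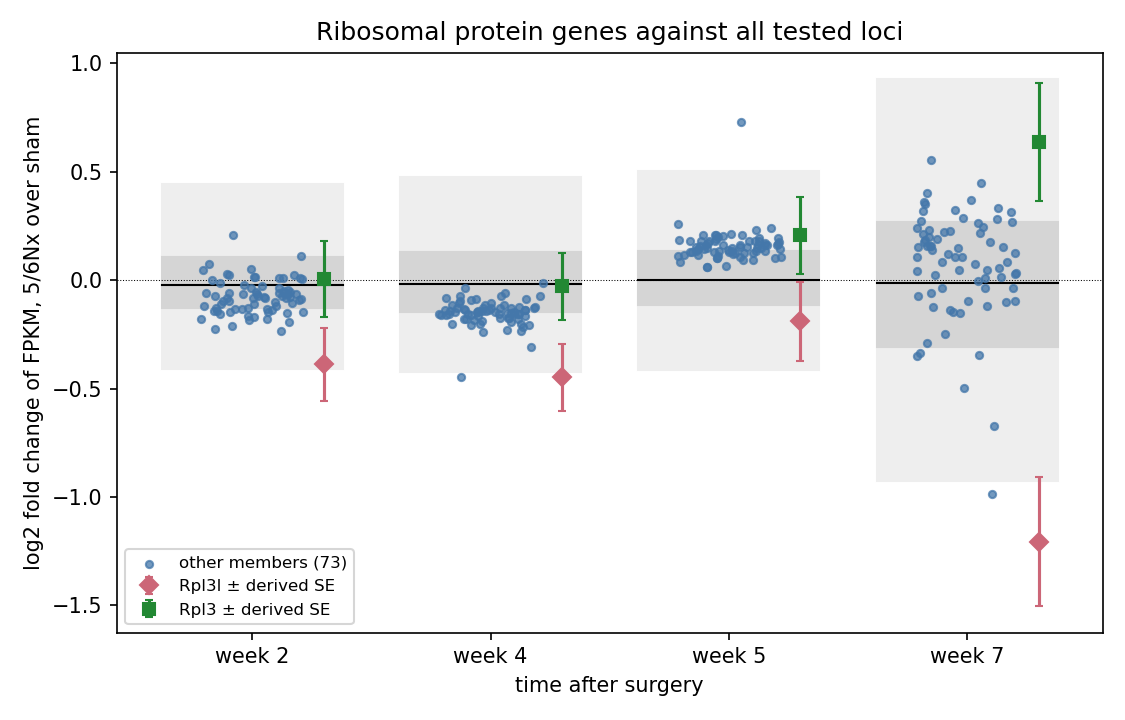
Log2 fold change of FPKM (5/6Nx over sham, vertical axis) of each ribosomal protein gene at weeks 2, 4, 5 and 7, with Rpl3l as a diamond and Rpl3 as a square, each with bars of 1 derived standard error, and the other 73 members as points. The light and dark boxes span the 5th to 95th and the 25th to 75th percentiles of all tested loci and the line is their median. The members lie in a narrow band below 0 at week 4 and above 0 at week 5. At week 7 the members and the boxes both spread more widely.

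Within a week the members kept close together, less so at week 7, when other loci spread more as well. The standard deviation of log2 fold changes among the 75 members was 0.09, 0.07 and 0.09 at weeks 2, 4 and 5, less than the median standard error of 1 member's own fold change (0.17, 0.15 and 0.19). That error was derived from the authors' deposited p. It reflects the variance that their test assigned and is not a spread measured between the pools. At week 7 the standard deviation was 0.30, with a median error of 0.27. Over all tested loci the standard deviation was 0.33, 0.35, 0.38 and 0.63 at weeks 2, 4, 5 and 7. Over loci with at least 100 FPKM in both groups, members included, it was 0.16, 0.16, 0.20 and 0.38. The wider spread at week 7 was thus not particular to the members. Small and large subunit genes had like values, with medians of -0.08 and -0.08 at week 2, -0.14 and -0.15 at week 4, 0.15 and 0.15 at week 5, and 0.15 and 0.11 at week 7. Over the 4 weeks, 44 members were below sham at weeks 2 and 4 and above it at weeks 5 and 7. A further 15 were above sham at week 5 alone, 8 were below at week 4 alone, and 7 were above at weeks 2 and 5. Rpl3l was the 1 member whose representative locus was below sham in all 4 weeks; for Rps4y2 that locus differs at week 7, as given below.

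Calls by the authors' Cuffdiff test were rare among the members. At week 2 the authors' deposited table called 0 members and 0% of all tested loci, and an unadjusted p under 0.05 was listed for 1 member, Rpl3l, against 2.77% of the loci. At week 4 the table called 0 of the 75 members with a fold change, against 0.334% of the loci (0.156% lower), and the one called symbol was Rps6. Rpl3l and Rpl14 had a p under 0.05 at week 4, against 5.47% of the loci. At week 5 the table called 0 members against 0.55% of the loci (0.154% lower), and 1 member, Rps4y2, had a p under 0.05 against 4.44%. At week 7 it called 1 member, Rpl3l, as lower, against 1.75% of the loci (0.315% lower). A p under 0.05 was listed for 5 members at week 7, against 10.8% of the loci: Rpl3l, Rpl36 and Rps15 below sham, and Rpl3 and Rpl39 above.

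Directions at week 7 rest on the column names. The authors' test statistic in that table had the other sign than the fold change in each of 13645 loci compared, the 75 members included. Every week 7 direction given here would turn if the names were exchanged. By the names as they stand, 15 of 15 macrophage and monocyte markers were above sham at week 7, as were 14 of 15 at each earlier week. All 12 ventricular myocyte markers (Myh6 and Myh7 share a locus) were below sham at week 7, as they were at weeks 2 and 4, with 10 below at week 5.

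Rpl3l, the muscle paralogue of Rpl3, was the 1 measured member that fell by the authors' test, at week 7. Its locus (XLOC_003230) lies on chromosome 10, from 13910496 to 13921040, in the rat build rn5. Its sham and 5/6Nx levels were 251 and 191 FPKM at week 2, 259 and 190 at week 4, 352 and 309 at week 5, and 98.3 and 42.6 at week 7. The 5/6Nx group was the lower one every time. Log2 fold changes were -0.39 ± 0.17 at week 2, -0.45 ± 0.15 at week 4, -0.19 ± 0.18 at week 5 and -1.21 ± 0.30 at week 7 (± derived standard error, 2 libraries per group). In the authors' deposited table the Cuffdiff p was 0.0223, 0.0037, 0.2938 and 5e-05, and the q was 1, 0.298, 1 and 0.00564. The last p is the smallest that the tables hold, so its standard error is an upper bound.

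The mean over the 4 weeks, weighted by the inverse squared errors, was -0.44 ± 0.09 for Rpl3l. Its adjusted p was 0.000283 by a normal test, adjusted by Benjamini-Hochberg over 12120 loci. These loci were tested and had a fold change and a derived error in every week. No other member passed, the next smallest adjusted p being 0.413, against 3.36% of the loci in both directions and 1.04% lower. Without week 7 the mean of Rpl3l was -0.36 ± 0.10, with an adjusted p of 0.0204 by the same normal test. This mean was added after the weekly values had been seen. A chi-square test for a difference between the weeks gave Rpl3l an unadjusted p of 0.0349 and an adjusted p of 1. It passed for 0 members and for 24 of 12120 loci (0.198%), and Rpl3l was the 1 member with an unadjusted p under 0.05. With errors taken from the deposited test statistic instead, an alternative added after seeing the data, the chi-square test for that difference gave Rpl3l an unadjusted p of 0.117 and Rpl36 one of 0.0146 (adjusted p 0.936). Under that alternative 108 loci passed for a difference and 182, in place of 407, for the mean, where Rpl3l kept its call with an adjusted p of 0.010 by the normal test.

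Rpl3 (XLOC_019650, chromosome 7, 121287082 to 121292461) encodes the standard protein at the same place in the ribosome. Its sham and 5/6Nx levels were 295 and 296 FPKM at week 2, 278 and 272 at week 4, 221 and 255 at week 5, and 127 and 197 at week 7. Fold changes were 0.00 ± 0.18, -0.03 ± 0.16, 0.21 ± 0.18 and 0.64 ± 0.27 on the log2 scale. At week 7, by the column names, it had the highest value of all members, with a Cuffdiff p of 0.0192 and a q of 0.313 in the authors' deposited table, so it was not called. Its mean over the weeks was 0.12 ± 0.09.

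As a ratio within each group, Rpl3l stood at 0.85 of the Rpl3 level in sham and 0.648 in 5/6Nx at week 2, and at 0.933 and 0.697 at week 4. At week 5 its listed level exceeded that of Rpl3, with ratios of 1.59 and 1.21. At week 7 the ratio was 0.774 in sham and 0.216 in 5/6Nx. On the log2 scale the ratio was lower in 5/6Nx by -0.39 ± 0.24, -0.42 ± 0.22, -0.40 ± 0.25 and -1.84 ± 0.40, with errors that treat the genes as independent. The first 3 differences are below 2 of their own errors, and the last is above 4 of them. These are ratios of listed FPKM, which is scaled to transcript length, and they may not be ratios of molecules. Another such ratio, Rplp1 to Rplp0, was 2.04 in sham at week 5 and 0.94 in sham at week 7.

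**Figure D2:**
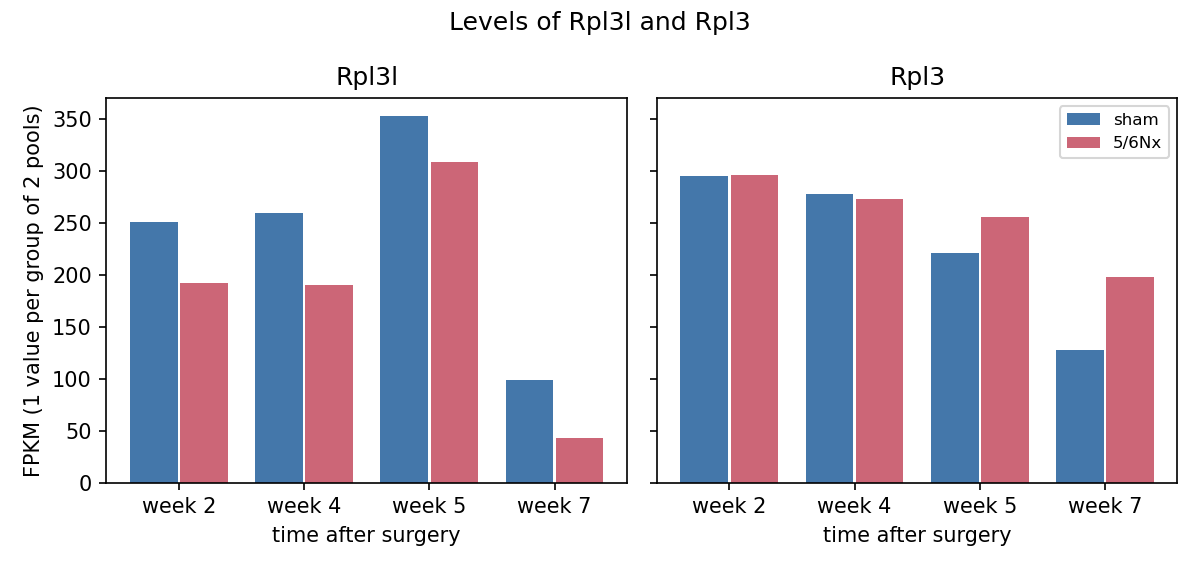
FPKM (vertical axis, 1 value per group of 2 pools, no error in the tables) of Rpl3l and Rpl3 in the sham and 5/6Nx groups at weeks 2, 4, 5 and 7. Rpl3l is lower in 5/6Nx in every week, down to 42.6 at week 7, while Rpl3 differs little at weeks 2 and 4 and stands at 197 against 127 in sham at week 7.

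Markers of cell types in the tissue differed in the same comparisons. All 12 ventricular myocyte markers were detected, with summed levels of 107909 and 97332 FPKM (sham, 5/6Nx) at week 2, 110393 and 96489 at week 4, 153963 and 150887 at week 5, and 70809 and 54091 at week 7. Their median log2 fold changes were -0.15, -0.19, -0.07 and -0.47, with 0, 0, 2 and 0 of 12 above sham, and 0 were called in any week. Rpl3l lay below each of the 12 at weeks 2, 4 and 7. The lowest of them were Myl2 (-0.27) at week 2, Tnnc1 (-0.28) at week 4 and the locus shared by Myh6 and Myh7 (-1.04 ± 0.53) at week 7. Because of that shared locus the 12 symbols are not 12 separate values, and the summed levels may count it for both symbols. At week 5 Mybpc3 (-0.29 ± 0.26) was lower than Rpl3l. Rpl3l stood at -0.39 ± 0.17, -0.45 ± 0.15 and -1.21 ± 0.30 at weeks 2, 4 and 7. Its gaps to the lowest marker were about as large as its own errors or smaller. Whether Rpl3l fell beyond the myocyte markers was not tested. In bulk tissue, fewer cells of a type and less RNA per cell cannot be told apart.

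Macrophage and monocyte markers had medians of 0.37, 0.30, 0.33 and 1.03, with 0, 0, 1 and 6 of 15 called higher. Their summed level went from 614 to 810, 596 to 702, 529 to 681 and 339 to 1061 FPKM, and none of their genes was at 0. Lyz2 (0.67 ± 0.18 at week 5, 2.36 ± 0.58 at week 7) and Cd68 (2.19 ± 0.54 at week 7), a lysozyme and a lysosomal protein of macrophages, were among the called genes. Fibroblast markers had medians of 0.24, 0.59, 0.50 and 0.64, with 0, 3, 2 and 1 of 9 called higher. Col1a2 was listed at 0 in a group at weeks 2, 4 and 7. Cell division markers had medians of 0.49, 0.92, 1.35 and 1.17, with 0, 2, 3 and 1 called higher of 11, 11, 11 and 10 tested. Top2a was called at weeks 4, 5 and 7. Red cell markers had medians of 0.33, 0.15, 1.16 and 0.97, with 0, 0, 3 and 2 called higher of 6, 6, 5 and 6 tested. Over all tested loci, 0%, 0.334%, 0.55% and 1.75% were called in either direction at the 4 weeks. Of the lymphocyte markers only 5 to 7 were tested in a week, and 0 were called. The part of these cells in the fold changes of the ribosomal genes was not tested.

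The most abundant members belong to both subunits. Rpl37a (XLOC_021514, chromosome 9, 79774878 to 79776319), a zinc-binding 60S protein, had sham and 5/6Nx levels of 5185 and 4408 FPKM at week 2, 4639 and 4186 at week 4, 4895 and 5478 at week 5, and 1866 and 1680 at week 7. It was the second lowest member at week 2 (-0.23 ± 0.17) and stood at -0.15 ± 0.16, 0.16 ± 0.19 and -0.15 ± 0.27 afterwards. Rpl41, the shortest 60S protein, had 3885 and 3920, 3767 and 3669, 3923 and 4632, and 1538 and 1656 FPKM. It was among the 3 highest fold changes at weeks 4 (-0.04 ± 0.16) and 5 (0.24 ± 0.20). None of these differences exceeded 2 of its own errors.

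Rps29, a 40S protein, had 4194 and 3783, 3989 and 3646, 4121 and 4614, and 1091 and 1212 FPKM at the 4 weeks. Rps27 averaged 2569 FPKM over the 8 groups, Rps24 2093, Rplp1 1864 and Rpl37 1768. At the other end were Rps4y2 (25.2 FPKM), Rps19bp1 (31.3), Rpl15 (172) and Rpl28 (200). Of the 75 members, 41 to 51 exceeded 1000 FPKM in the groups of weeks 2, 4 and 5, and 14 and 17 did in the sham and 5/6Nx groups of week 7.

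At week 2 the lowest after Rpl3l and Rpl37a was Rps14, of the 40S platform (1958 and 1675 FPKM, -0.22 ± 0.17), and the highest were Rpl13 (657 and 758 FPKM, 0.21 ± 0.17), Rps4y2 (0.11 ± 0.57) and Rps2 (0.07 ± 0.17). At week 4 Rpl14 went from 725 to 587 FPKM (-0.31 ± 0.15; p 0.0472 and q 0.893 by Cuffdiff in the authors' deposited table). Rpl39, which lines the exit tunnel of the large subunit, was highest with 1470 and 1455 FPKM (-0.01 ± 0.16), so the highest member at week 4 was still not above sham. At week 5 the lowest after Rpl3l were Rpl14 and Rpl10 (both 0.06 ± 0.19), and Rpl36a was high with 393 and 470 FPKM (0.26 ± 0.18).

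Rps4y2 had the highest fold change at week 5, from 22 to 36.5 FPKM (0.73 ± 0.35; p 0.0379 and q 0.986 by Cuffdiff in the authors' deposited table). The tables list 2 Rps4y2 loci with the same coordinates (chromosome 4, 246754565 to 246979594). The other locus stood at -0.38 ± 0.21 at week 2, -0.28 ± 0.22 at week 4 and -0.11 ± 0.23 at week 5 (10.4 and 9.61 FPKM). By its higher level it became the representative at week 7 (22.1 and 21.6 FPKM, -0.04 ± 0.29), so this locus was below sham in all 4 weeks. How reads were divided between these loci is not given in the sources used here, and the values of Rps4y2 are uncertain for that reason.

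The stalk of the large subunit, which recruits elongation factors, is built of Rplp0 and the acidic proteins Rplp1 and Rplp2. Rplp0 had 1165 and 1143 FPKM at week 2, 1162 and 1074 at week 4, 1212 and 1356 at week 5, and 275 and 291 at week 7. Rplp1 had 2329 and 2374, 2387 and 2153, 2467 and 2660, and 258 and 280 FPKM. Their fold changes ran from -0.15 to 0.16 on the log2 scale, each below its error. The level ratio of Rplp1 to Rplp0 was 1.96 to 2.08 in all groups of weeks 2, 4 and 5, and 0.94 and 0.964 at week 7. It did not differ between sham and 5/6Nx beyond its error at any week (log2 differences of 0.06 ± 0.24, -0.04 ± 0.22, -0.05 ± 0.29 and 0.04 ± 0.38).

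Rps27a is made as a fusion with ubiquitin, the small protein tag for degradation. It had 1602 and 1493 FPKM at week 2, 1559 and 1484 at week 4, 1513 and 1746 at week 5, and 1345 and 1837 at week 7. Its week 7 fold change of 0.45 ± 0.27 was the third highest of the members, and it was not called (Cuffdiff p 0.102 and q 0.611 in the authors' deposited table). Rps27, a zinc-binding 40S protein, stood at -0.15 ± 0.17, -0.18 ± 0.16, 0.18 ± 0.19 and 0.17 ± 0.26.

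Ratios were also computed for Rpl22l1 to Rpl22 and Rpl36al to Rpl36a. Rpl22l1, the paralogue of the RNA-binding Rpl22, stood at 0.517 of the Rpl22 level in sham and 0.445 in 5/6Nx at week 2, 0.516 and 0.514 at week 4, 0.467 and 0.444 at week 5, and 1.1 and 1.04 at week 7. The log2 differences of that ratio were -0.22 ± 0.24, -0.01 ± 0.22, -0.07 ± 0.25 and -0.07 ± 0.38. For Rpl36al against its close copy Rpl36a, the differences were 0.11 ± 0.28, -0.10 ± 0.22, -0.12 ± 0.25 and -0.25 ± 0.37. All are within about 1 error, and with errors of this size differences of the size seen for Rpl3l at weeks 2, 4 and 5 could not be told from 0.

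Rps6, the 40S protein phosphorylated by S6 kinase, could not be measured. The tables list 2 loci for each of Rps6, Rps9, Rplp2, Rpl7a and Rpl8, with equal spans within a symbol (2861 bases for Rps6), and 72 of the 80 values of these 10 loci are exactly 0. The highest of the 80 is 1.85 FPKM, at 1 Rps6 locus (XLOC_017051, chromosome 5, 109196713 to 109199574) in the week 4 sham group. Its 5/6Nx value is listed at 0, and the authors' deposited table called it with a q of 0.0185. The other Rps6 locus is listed at 0 in all 8 groups. Every cell uses these proteins, so the zeros are taken as listed values, and no fold is given.

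The members' relative levels at week 7 differed from those of the earlier weeks, already in the sham groups. Across 73 members, leaving out Rps4y2 and Rps19bp1, sham levels of weeks 2, 4 and 5 had rank correlations of 0.98 to 1.00 with each other and of 0.69 to 0.74 with week 7. Genes are not independent replicates, and each point of a week shares the same 2 libraries. Rpl36, a 60S protein, had 847, 878 and 938 FPKM in the sham groups of weeks 2, 4 and 5 and 34.3 at week 7, which is 3.86% of the earlier mean. Rps15, of the 40S head, stood at 8.9% and Rplp1 at 10.8% of their earlier sham means. Rpl39 (94.2%), Rps24 (93.5%) and Rps27a (86.3%) were close to theirs, and Rpl22l1 was at 110%.

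**Figure D3:**
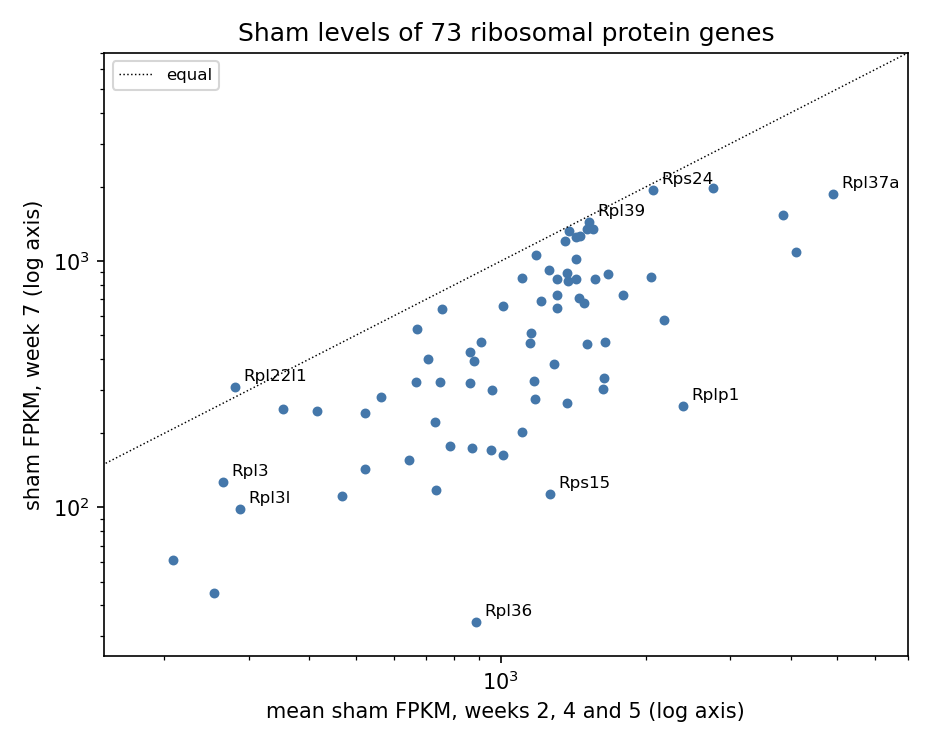
Sham FPKM at week 7 (vertical log axis) against the mean sham FPKM of weeks 2, 4 and 5 (horizontal log axis) for 73 ribosomal protein genes, with a dotted line for equal levels. Most genes lie below the line by very unequal distances, from Rpl36 at 3.86% of the earlier mean to Rpl22l1 at 110%.

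The summed share of the members in the sham column was also lower at week 7. With the 50 most abundant loci outside the set left out, members made up 17, 16.4, 15.7 and 9.78% of the summed FPKM in sham, and 16.5, 15.9, 17 and 10.9% in 5/6Nx. Over whole columns the shares were 11.8 and 2.63% at week 2, 1.64 and 1.33% at week 4, 0.317 and 1.66% at week 5, and 7.1 and 8.2% at week 7. In 5 of the 8 columns a single locus of 27 listed bases (XLOC_017592, chromosome 5, 142777432 to 142777458) held most of the sum, with up to 28651600 FPKM. The week 7 libraries had 96.0 to 96.2% of bases at quality 30 or above, against 93.2 to 94.5% in the others, and 94.0 to 94.9% of reads were mapped in all 16. The week 7 sham level cannot be told apart from the week's table, its libraries or the age of the rats.

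Members that were low in the week 7 sham group for their earlier level tended to be lower still in 5/6Nx. Of the 16 members under 25% of their earlier sham mean, 3 were above sham at week 7 and 13 below, with a median log2 fold change of -0.20. Of 28 members between 25 and 50%, 22 were above and 6 below, with a median of 0.11. Of 29 members at 50% or more, 27 were above and 2 below, with a median of 0.23. The rank correlation of that percent with the week 7 fold change was 0.65 over 73 members and 0.66 without Rpl3l. Both quantities hold the week 7 sham level, above the line in the percent and below it in the fold change.

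**Figure D4:**
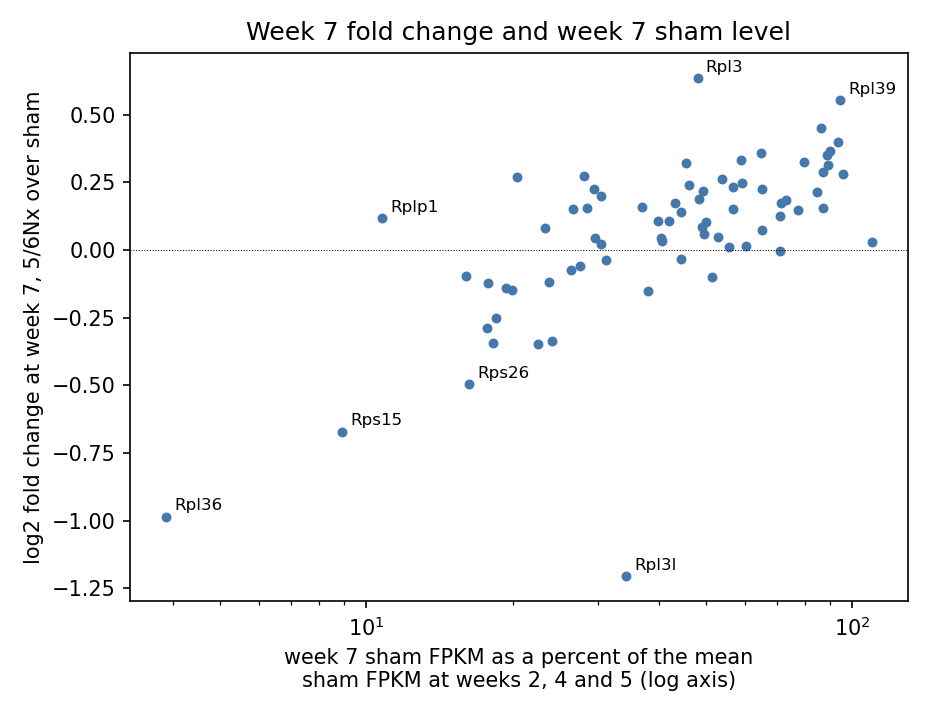
Log2 fold change at week 7 (5/6Nx over sham, vertical axis) against the week 7 sham FPKM as a percent of the mean sham FPKM at weeks 2, 4 and 5 (horizontal log axis) for 73 ribosomal protein genes. Points rise from Rpl36 and Rps15 at the lower left to Rpl39 at the upper right, and Rpl3l at 34.2% lies far below the members of like percent.

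Rpl36 and Rps15 lie at the low end of that order and Rpl39 near its high end. Rpl36 went from 34.3 to 17.3 FPKM at week 7 (-0.99 ± 0.45; p 0.0274 and q 0.373 by Cuffdiff in the authors' deposited table). In the 3 earlier weeks it stood at 0.01 ± 0.17, -0.21 ± 0.15 and 0.13 ± 0.17. Rps15 went from 113 to 70.9 FPKM (-0.67 ± 0.31, Cuffdiff p 0.0299 and q 0.386 in the authors' deposited table), after -0.08 ± 0.17, -0.15 ± 0.15 and 0.16 ± 0.19. Rps26, near the exit of the messenger channel, went from 164 to 116 FPKM (-0.50 ± 0.30; named after its value was seen). Rpl39 went from 1437 to 2108 FPKM (0.55 ± 0.27, Cuffdiff p 0.0376 and q 0.419 in the authors' deposited table).

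Rpl3l did not follow that order: its week 7 sham level was 34.2% of its earlier mean, in the range where the median fold change was 0.11, and its own was -1.21. Rpl3, at 48%, had 0.64. In the chi-square test for a difference between weeks, the 5 smallest unadjusted p-values among members were those of Rpl3l (0.0349), Rpl36 (0.0878), Rps15 (0.14), Rpl3 (0.158) and Rpl23a (0.158), and each adjusted p was 1.

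The share of G and C in the first 50 bases of the transcript, from the RefSeq windows, had a rank correlation of -0.21 with the week 7 sham percent over 58 members. With the fold changes of weeks 2, 4, 5 and 7 the values were 0.20, -0.15, -0.31 and -0.08, and the share in the 250 bases before the start had -0.28 with the week 7 sham percent. Correlations of this size are weak and are given as a description. These windows hold the start of the transcript, and the composition of whole messengers was not analysed here.

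Ribosomal proteins whose names fall outside the symbol rule lay on the members' side of 0 at weeks 2, 4 and 5. Rpsa of the 40S subunit had log2 fold changes of -0.09 ± 0.20, -0.20 ± 0.18, 0.19 ± 0.23 and 0.01 ± 0.35. Fau, which encodes a fusion with a ubiquitin-like domain, had -0.08 ± 0.17, -0.17 ± 0.16, 0.11 ± 0.18 and -0.06 ± 0.28. The 40S scaffold Gnb2l1 (also named Rack1) had -0.06 ± 0.17, -0.17 ± 0.15, 0.05 ± 0.19 and -0.19 ± 0.27. None of them was called. At week 7 Fau had 228 and 219 FPKM, after 1153 and 1090 at week 2.

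Of the factors that work with the ribosome, none was called in any week. Elongation factors (11 tested) had medians of -0.09, -0.16, 0.06 and 0.01, with 1, 1, 7 and 6 above sham. At week 7 Eef1a1, the general factor that delivers transfer RNA, went from 1124 to 1760 FPKM (0.65 ± 0.29). Its muscle and nerve paralogue Eef1a2 went from 166 to 88.2 FPKM (-0.91 ± 0.30). Their Cuffdiff q-values in the authors' deposited table were 0.363 and 0.107, and both were named after their values were seen.

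Initiation factors (40 tested) had medians of -0.09, -0.09, 0.00 and 0.10, and 10, 7, 20 and 22 were above sham. Pabpc1, which binds poly(A) tails, went from 90.8 to 166 FPKM at week 7 (0.87 ± 0.27; q 0.0565 by Cuffdiff in the authors' deposited table), also named after its value was seen. Genes of ribosome assembly and ribosomal RNA synthesis (41 or 42 tested) had medians of -0.08, -0.09, 0.05 and 0.08, with 15, 7, 27 and 25 above sham. Genes of mTOR and S6 kinase signalling (16 or 17 tested) had medians of 0.00, -0.07, -0.12 and -0.13, with 8, 4, 2 and 5 above sham, and so stood below 0 at week 5, when the ribosomal proteins stood above it.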

How the data were processed

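Per the labels, RNA from powdered left ventricle went into stranded libraries of total RNA that were read from both ends. Build rn5 and the tools Cuffdiff, Cufflinks 2.0.10, TopHat2 2.0.10 and cutadapt are listed, without roles, in the submitters' processing notes. The authors deposited 1 table per week with an abundance per group, taken as FPKM because Cuffdiff gives that unit; the headers do not name it. The test statistic (a score), the p-value and the q-value in those tables are also the authors', and a call is their significance mark. A deposited library table gives counts of reads (44.5 to 61.8 M, where M is mega, except 23.6 M in pool 2 of the week 7 5/6Nx group), the percent of bases that reach quality 30 and the percent of reads mapped; its yield and mean quality were not analysed here. The tables hold no count per gene, so no interval from counting was computed. How far these depths limit the precision was not tested.

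Log2 fold changes were computed from the FPKM columns, with no pseudocount. The standard error is the size of the log2 fold change over the standard normal value that matches the authors' two-sided p. It reflects the variance that the authors' test assigned to a locus, and the tables hold no values of single pools to measure their spread. Its median among members was 0.17 at week 2, against 0.05 for Rps4x. Nothing in the labels says whether the pools were processed apart. The planned limma or edgeR model needed a column per library, which the tables do not have. At week 7, 23181 rows that repeat loci under several symbols were joined into 22868 loci. The tests of the mean over weeks and of the difference between weeks used Python 3.11.15, pandas 2.3.3 and scipy 1.17.1. Their code was checked on fold changes simulated with the derived errors, which cannot show that those errors hold in these data. Members, gene lists and the naming rule were chosen with earlier results of these data known. The rule named called members, the 3 highest and 3 lowest fold changes per week (FPKM of at least 1), the 8 highest and 4 lowest mean levels, the 5 smallest p-values for a difference between weeks, stalk proteins, paralogue pairs, ubiquitin fusions and loci at 0. Some genes that this rule names are not reported here.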

Additional observations from a re-analysis of the deposited data

How the results depend on the processing

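No paired analysis was possible because the tables hold 1 value per group and no columns of libraries. For the same reason no replicate could be left out in turn, and neither fit was run. The count of 1 called symbol at week 4 (Rps6, listed at 0 in 5/6Nx) became 0 with at least 1 FPKM in both groups, with at least 10 FPKM in both groups, and with a q under 0.01. At week 7 the 1 call became 0 without symbols of copies, since that setting removes Rpl3l, which kept its call with a q under 0.01. Members above sham numbered 17, 1, 74 and 53 at weeks 2, 4, 5 and 7 relative to the median of all tested loci (15, 0, 74 and 52 as reported). Relative to loci of at least 100 FPKM (members included), an alternative added after seeing the data, they numbered 33, 19, 74 and 50. The difference in the members' share of summed FPKM (5/6Nx minus sham) was -9.12 and -0.315 percentage points at weeks 2 and 4, and -0.515 and -0.537 without the 50 most abundant other loci. Of the other recomputed values, 77 counts and shares came within 1.5 times the reported ones, and the medians kept their direction and the calls of Rpl3l and Rpl3 their state. The uncalled week 4 log2 fold change of Rpl3 turned from -0.03 to 0.10 relative to loci of at least 100 FPKM. With errors from the test statistic, loci passing for a difference between weeks went from 24 to 108 and for the mean over weeks from 407 to 182. The adjusted p of the Rpl3l mean over weeks ranged from 0.000283 to 0.0204. The tables hold 1 value per group of 2 pools. At weeks 2, 4 and 5 the median derived error of a member was 0.17, 0.15 and 0.19. A log2 fold change below 2 of its own errors could not be told from 0.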
